A study of Mus musculus with 15 samples.

Results

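The cytoplasmic ribosomal protein genes are described here across naive and cultured mouse B cells. They were taken as every gene whose symbol starts with Rpl or Rps and a number, with the stalk genes Rplp0, Rplp1 and Rplp2 and with Rpsa, leaving out pseudogenes, the Rps6k kinases and Rps19bp1. The rule found 85 of the 21761 genes in the table, of which 77 were standard ribosomal proteins (46 of the large and 31 of the small subunit) and 8 were paralogs of another member. Fau and Gnb2l1 (now called Rack1) also encode ribosomal proteins but fall outside the symbols, and are given separately. B cells without CD43 were taken from the spleens of female C57BL/6J mice, whose age the sources used here do not give. They were left naive or cultured for 3 days with LPS, IL-2 and IL-5 together with either DMSO or 250 nM GSK-J4, an inhibitor of the H3K27 demethylases KDM6A and KDM6B. After culture, GL7+ cells (named activated B cells in the titles) and CD138+ cells (named plasmablasts) were enriched on magnets, and poly(A) RNA was sequenced. The 5 groups, naive, GL7+ DMSO, GL7+ GSK-J4, CD138+ DMSO and CD138+ GSK-J4, had 3 libraries each, and the replicate number is the mouse. A CD138+ GSK-J4 column numbered 4 matched its group but no single mouse, and is called replicate 4.

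A ribosome is built from a small and a large subunit, and each subunit carries its ribosomal proteins in a fixed proportion, mostly 1 copy of each. Their mRNAs are among the most abundant of the cell and begin with a C followed by a run of pyrimidines, the 5′ terminal oligopyrimidine (TOP) sequence, through which mTORC1 and LARP1 set how strongly they are translated. Resting B cells are small and make little protein, activated B cells grow and divide, and antibody-secreting cells devote much of their translation to immunoglobulin. A few ribosomal proteins have a paralog that can take their place in the ribosome, such as RPL22L1 for RPL22, RPS27L for RPS27 and RPL36AL for RPL36A.

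The first bases of the mRNAs can be read around the annotated starts, which were available from RefSeq for 64 of the 85 members (build GRCm38.p6). A C exactly at an annotated start and followed by at least 4 C or T was found in 13 of 57 standard members (22.8%) and in 0 of 7 paralogs, against 2.73% of 16057 genes of the table with such a sequence. When a C preceded by A or G was sought within 10 bases on either side of the start, 26 of 57 standard members (45.6%), 4 of 7 paralogs (57.1%) and 27.6% of all genes had one. The windows of 30 bases below run from 10 bases before to 20 bases after the start (base 11 is the start). Capitals mark the longest such run, or the first where runs are equally long. In Rpl22 an equally long run nearer the start is left in small letters. They show 3 members with a long run, and the 4 paralogs that rose against naive cells, with the parent where the tables hold its start.
Rpl15 (chr14:18270967-18270996, minus strand): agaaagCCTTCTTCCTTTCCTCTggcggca
Rpl27a (chr7:109519185-109519214, plus strand): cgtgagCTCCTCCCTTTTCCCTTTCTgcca
Rps6 (chr4:86857348-86857377, minus strand): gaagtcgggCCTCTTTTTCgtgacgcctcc
Rps27 (chr3:90213629-90213658, minus strand): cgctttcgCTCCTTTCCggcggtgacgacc
Rps27l (chr9:66946076-66946105, plus strand): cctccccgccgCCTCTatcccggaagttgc
Rpl22 (chr4:152324426-152324455, plus strand): CTTCTggaatgttccagctcccactgacag
Rpl22l1 (chr3:28805498-28805527, plus strand): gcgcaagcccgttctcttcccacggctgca
Rpl36a (chrX:134585644-134585673, plus strand): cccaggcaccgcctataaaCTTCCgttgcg
Rpl36al (chr12:69184048-69184077, minus strand): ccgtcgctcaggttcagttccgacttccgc
Rpl7l1 (chr17:46782637-46782666, minus strand): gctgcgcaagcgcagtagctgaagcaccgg
The runs of Rpl15 (17 bases) and Rpl27a (20 bases) were the longest of these, and the Rpl22l1, Rpl36al and Rpl7l1 windows held no run by this definition. Rps27 had a run of 9 bases and its paralog Rps27l one of 5 bases. In the 300 bases from 250 before to 50 after the start, CCGGAAG, the core bound by ETS factors such as GABP, was present on either strand in 42.1% of standard members, 28.6% of paralogs and 13.6% of all genes. AAGATGG, a YY1 core, was present in 15.8%, 14.3% and 7.37%, and TATAAA in 10.5%, 14.3% and 14.5%. A match describes the letters only and does not show that a factor binds there.

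The libraries held between 2635996 and 13190006 reads assigned to genes, both extremes among the naive cells, while the cultured libraries held 6241259 to 12212135. The 5 B cell markers were above 1 RPKM on average in every group, and the 5 plasmablast markers summed to 2849 to 3289 RPKM in CD138+ and 598 to 868 in GL7+ cultured libraries. Markers of other cells were highest in naive libraries, where the 5 myeloid markers summed to 58.7 to 92.7 RPKM against 1.46 to 4.32 in cultured libraries, and the 3 erythroid markers found summed to 68.7 to 82.9 RPKM against 0.545 to 9.61. In CD138+ GSK-J4 libraries the 3 NK markers were at 0 and Cd3e, of the T cell list, was at 0 in every cultured group. Whether other cells had a part in the naive levels was not tested. The naive libraries also stood apart from each other for the ribosomal protein genes: the median coefficient of variation over the 77 standard members was 16.8% in naive cells and 3.16, 1.19, 1.35 and 2.94% in GL7+ DMSO, GL7+ GSK-J4, CD138+ DMSO and CD138+ GSK-J4 cells. Naive replicate 2, the shallowest library, was the highest of the 3 in 68 of 81 members with a mean of at least 5 RPKM, replicate 1, the deepest, was the lowest in 77, and the ratio of replicate 2 to replicate 1 had a median of 1.38. Over 7625 other genes that ratio had a median of 0.95. Since all 15 libraries share 1 estimate of the spread for each gene, this also widens the error in comparisons between cultured groups, and counts between cultured groups are also given for the cultured libraries alone, an alternative chosen after seeing this spread.

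Ribosomal protein genes took a larger share of the reads in cultured than in naive cells. Their share was 4.11, 5.92 and 5.20% in the naive libraries (5.08% ± 0.911, SD, n = 3), with replicate 1 well below the other two. It was 6.37, 6.73 and 6.47% in GL7+ DMSO cells (6.52% ± 0.188, SD, n = 3) and 6.26% ± 0.0157 (SD, n = 3) in CD138+ DMSO cells. With GSK-J4 it was 6.16% ± 0.0306 in GL7+ and 5.94% ± 0.0523 in CD138+ cells (SD, n = 3 each). No naive library reached the lowest GL7+ library, and in each fraction every GSK-J4 library lay below every DMSO library, so the 2 treatments did not overlap. The order from GL7+ DMSO through CD138+ DMSO and GL7+ GSK-J4 to CD138+ GSK-J4 held without overlap between neighbours. It is an order of shares of assigned reads. Under trimmed mean scaling the median member change in CD138+ against GL7+ cells turned from -0.07 to 0.04 with DMSO. With GSK-J4 it turned from -0.09 to 0.02, so no direction of the family between the fractions is read from this order. The naive range reached 5.92%, within the CD138+ GSK-J4 range of 5.90 to 6.00%. Mitochondrial ribosomal proteins, which build the separate ribosome of the mitochondrion, took 0.16% ± 0.00587 of naive reads and 0.348% ± 0.0119 of GL7+ DMSO reads (SD, n = 3 each), a larger relative difference with much less spread between naive libraries. In RNA pooled from many cells, fewer cells of a type and less RNA per cell cannot be told apart, and a share of reads says nothing about the amount of ribosomal protein mRNA per cell.

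**Figure D1:**
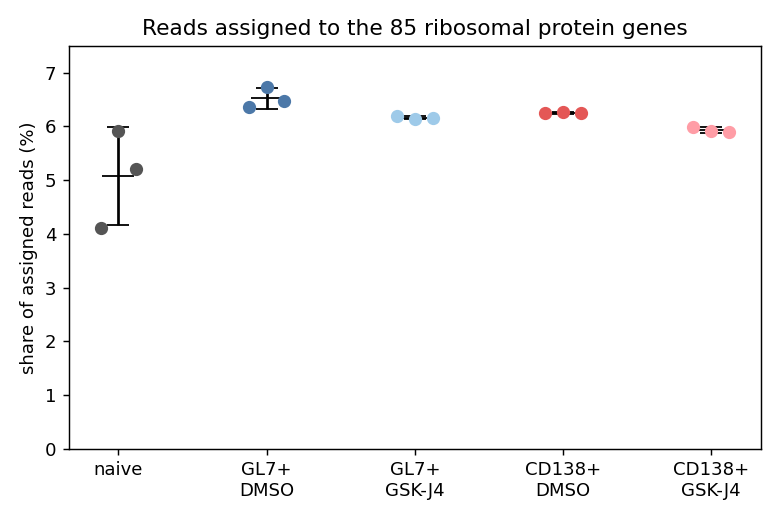
Share of assigned reads (percent, y axis from 0) of the 85 ribosomal protein genes in each library of the 5 groups (x axis); points are libraries, black bars mean ± SD of 3. The naive libraries range from 4.11 to 5.92% and the GL7+ DMSO libraries, the highest group, from 6.37 to 6.73%.

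Levels differed widely between members. Per kilobase of exon, the highest means over the 5 groups were those of the large subunit genes Rpl23a (1617 RPKM), Rpl10 (1553), Rpl12 (1550) and Rpl28 (1547), followed by Rplp0 (1526). The lowest were the paralogs Rpl10l, at 0 in all 15 libraries, Rpl3l (0.0751 RPKM), Rpl39l (0.476 RPKM) and Rps4l (4.29 RPKM). Rpl10l, Rpl3l and Rpl39l, paralogs known from testis or muscle, did not reach 1 RPKM in 3 libraries and were not tested, which left 82 members. Among the standard members Rpl34 was lowest at 23.6 RPKM, with 16 to 242 reads per library. The pseudogene row Rpl34-ps1 held 96.4 to 136.9 RPKM, so reads may be split between near-identical copies, and Rpl34, Rps15a (87.3 RPKM, with 2 pseudogene rows) and Rps19 are uncertain. The deposited gene length was over 2 times the longest principal GENCODE transcript for Rps19, Rps3, Rps12, Rpl11 and Rps24, which lowers their RPKM but not their changes between groups. It was 0.135 to 0.478 times that transcript for Rps20, Rpl36al, Rpl28, Rplp2 and Rpl35, and 0.514 times for Rpl12. A short length can raise RPKM, so the rank of Rpl28 and Rpl12 among the highest is uncertain. Of 77 standard members, 37 had their lowest group mean in naive and their highest in GL7+ DMSO cells, and 11 ran from a lowest mean in CD138+ GSK-J4 to a highest in GL7+ DMSO cells.

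**Figure D2:**
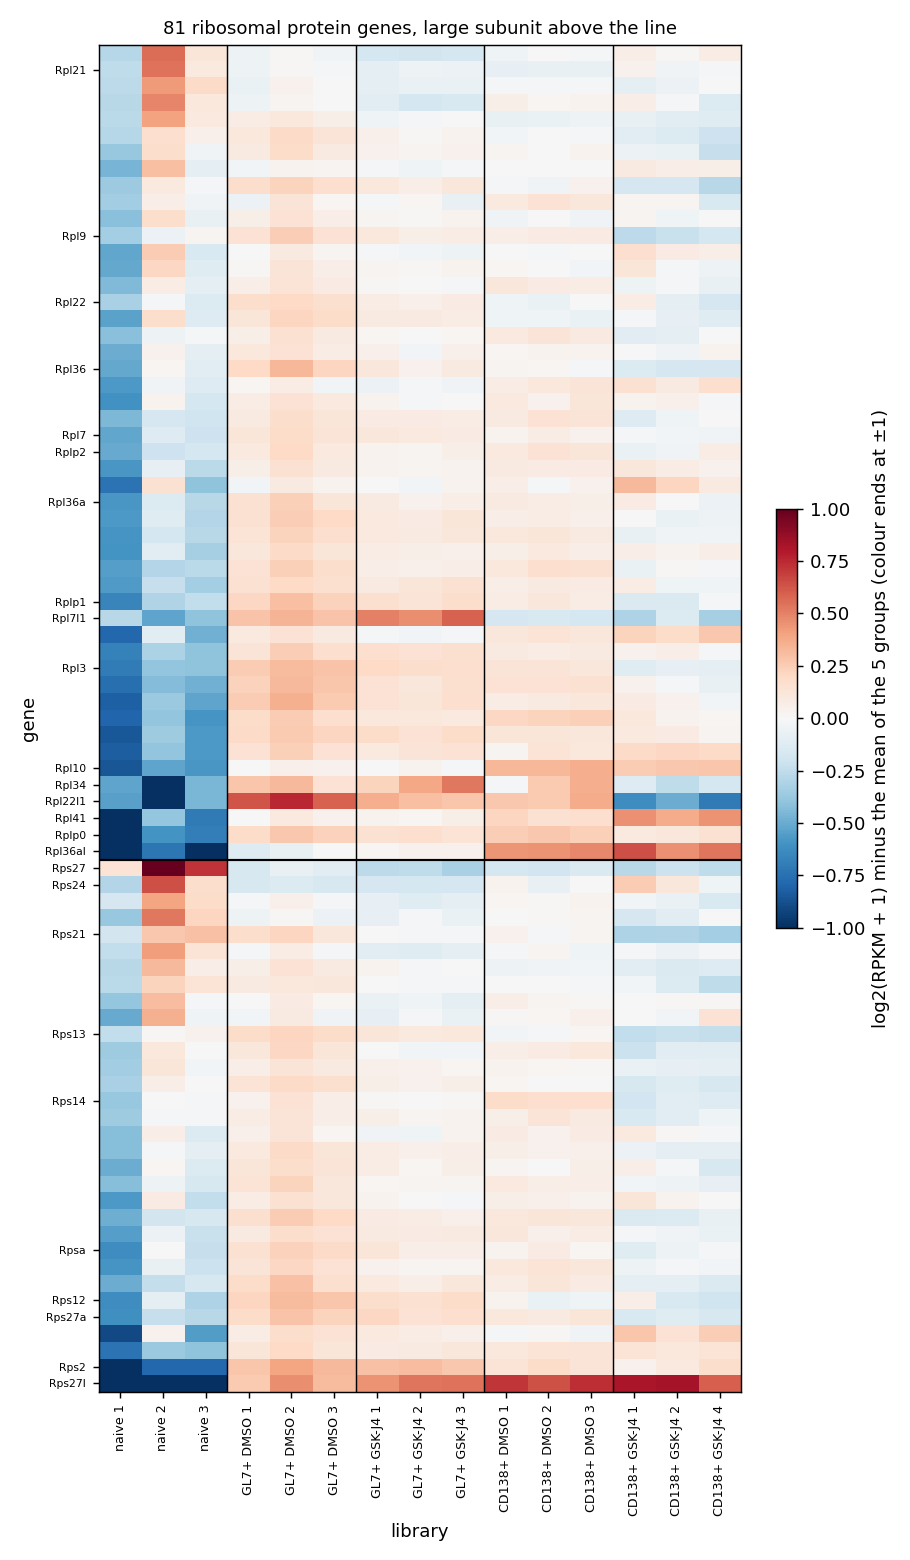
Each row is 1 of 81 ribosomal protein genes with a mean of at least 5 RPKM (a few are labelled) and each column 1 of 15 libraries; colour is log2(RPKM + 1) minus the mean of the 5 group means, cut at ±1. Naive replicate 1 is the lowest naive library in 77 rows and replicate 2 the highest in 68, and Rps27 is red in naive cells where Rps27l is blue.

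Between naive and GL7+ DMSO cells, which compares resting with activated B cells, most ribosomal protein genes rose and Rps27 fell. By limma on log2(RPKM + 1), 58 of 82 members were higher and 1 was lower (adjusted p under 0.05), and the median member change was 0.36 on this scale, the scale of all changes given here. Over the 10866 genes tested 41.3% were called higher and 40.3% lower, and the median change was 0.01. Naive and GL7+ DMSO values did not overlap for 53 higher members and 1 lower member, against 40.7% and 40% of all genes. Among standard members 34 of 46 of the large and 20 of 31 of the small subunit rose, with median changes of 0.41 and 0.25. In CD138+ DMSO against naive cells 52 members were higher and 1 lower, with a median change of 0.29, against 39.9% and 43.5% of all genes. There the groups did not overlap for 45 higher and 1 lower, against 39.4% and 42.8%. The 2 comparisons share the naive libraries. Without naive replicate 2 the counts were 69 higher and 1 lower in GL7+ cells (40.8% and 41.5% of all genes) and 66 higher and 1 lower in CD138+ cells (39.9% and 44.6%), and without naive replicate 1 they were 54 and 11 (41% and 39.1% of all genes), and 43 and 14 (39.8% and 42.6%). Quantile normalization, which gives all libraries the same distribution, left 34 higher and 22 lower in GL7+ (39.9% and 41.7% of all genes) and 26 higher and 26 lower in CD138+ cells (41.3% and 41.9%), with member medians of 0.05 and 0.01, so the direction of the family as a whole against naive cells depends on the scaling.

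Rps2, a small subunit protein at the mRNA entry channel, had 486, 604 and 604 RPKM in naive cells, 1266, 1374 and 1309 in GL7+ DMSO cells and 1149, 1185 and 1143 in CD138+ DMSO cells. Every cultured library was above every naive one. Rps2 rose by 1.23 (SE 0.0756, adjusted p = 9e-10) in GL7+ and by 1.04 (SE 0.0756, adjusted p = 5e-09) in CD138+ cells. Rplp0, the base of the stalk that recruits elongation factors, had 737, 977 and 917 RPKM in naive, 1682, 1781 and 1737 in GL7+ DMSO and 1756, 1785 and 1747 in CD138+ DMSO cells. It rose by 0.99 (SE 0.0812, adjusted p = 2.4e-08) and 1.02 (adjusted p = 1.6e-08), and its partners on the stalk rose less in GL7+ cells, Rplp1 by 0.65 and Rplp2 by 0.43. Whether the stalk genes differed from each other in their change was not tested. Rpsa, also known as a laminin receptor, rose by 0.48 (SE 0.107, adjusted p = 0.00079) in GL7+ cells. Rpl10, which joins the large subunit late in its assembly, went from 834, 1051 and 1011 RPKM in naive cells to 1904, 1904 and 1944 in CD138+ DMSO cells, a rise of 1.00 (SE 0.0721, adjusted p = 4.9e-09). Rpl34 rose by 0.94 in GL7+ cells (adjusted p = 1.7e-05), on few reads. The more abundant row Rpl34-ps1 had 97.35, 112.3 and 128.7 RPKM in naive and 121.2, 128.5 and 118.5 in GL7+ DMSO cells, with overlap. It thus showed no such rise, and how reads were split between these rows was not tested.

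Rps27, a zinc finger protein of the small subunit, had 677, 1542 and 1013 RPKM in naive cells, 549, 582 and 568 in GL7+ DMSO cells and 545, 537 and 556 in CD138+ DMSO cells. All naive libraries were above all cultured ones, but they differed from each other by more than the lowest differed from the cultured cells. Rps27 fell by 0.85 (SE 0.188, adjusted p = 0.00073) in GL7+ and by 0.90 (SE 0.188, adjusted p = 0.00042) in CD138+ cells. Without naive replicate 2 the changes were -0.55 (adjusted p = 0.00041) and -0.60 (adjusted p = 0.00018), a smaller fall that still passed the threshold. Fau, whose product is a small subunit protein fused to a ubiquitin-like part, also fell, by 0.27 in GL7+ with overlap between the groups (adjusted p = 0.021) and 0.40 in CD138+ cells (adjusted p = 0.0015). Gnb2l1, a scaffold on the small subunit, rose by 0.57 (adjusted p = 4.7e-07) and 0.62 (adjusted p = 1.7e-07).

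The ribosome holds its proteins in fixed proportion, so members were also compared as shares of the summed RPKM of all members. On this scale 32 members were higher and 28 lower in GL7+ than in naive cells, against 26.9% and 49.4% of all genes. In CD138+ cells 25 were higher and 28 lower, against 28% and 50% of all genes. This scaling sets the median member change near 0 (-0.0001 in GL7+ and -0.01 in CD138+ cells), so a near-even split is built in. It also lowered the median change of all genes, to -0.30 and -0.31, so their shares are no measure for the members here. Besides Rps27 (-1.20 in both), Rps24, a small subunit protein, fell by 0.68 in GL7+ cells relative to the other members (adjusted p = 4.6e-06), and Rpl21, of the large subunit, fell by 0.51 (adjusted p = 1.7e-06). On the deposited scale neither Rps24 (-0.32, adjusted p = 0.066) nor Rpl21 (-0.15, adjusted p = 0.29) passed the threshold, and without naive replicate 2 the changes there were -0.09 (adjusted p = 0.43) and 0.06 (adjusted p = 0.48).

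**Figure D3:**
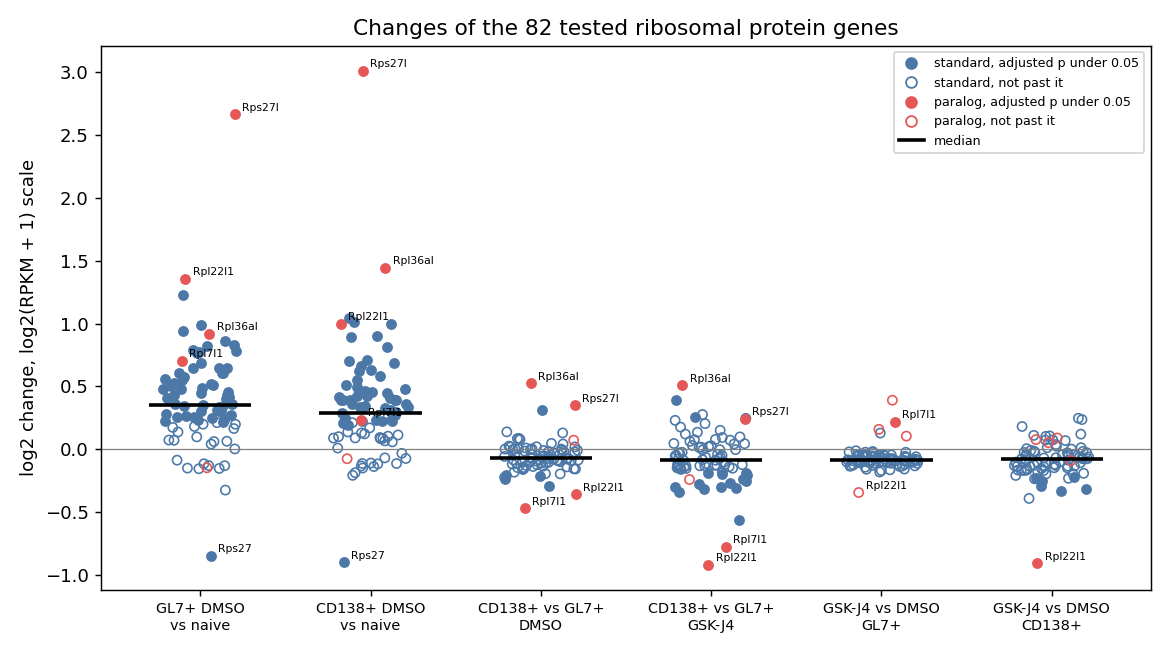
Change of each of the 82 tested ribosomal protein genes (log2(RPKM + 1) scale, y axis) in 6 comparisons (x axis); filled points passed an adjusted p of 0.05 by limma, red points are paralogs, black lines are medians. The medians are 0.36 and 0.29 against naive cells and lie between -0.09 and -0.07 in the other 4 comparisons, and Rps27l lies highest against naive cells at 2.66 and 3.01.

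Of the 5 tested paralogs 4 rose in both comparisons with naive cells, where 41.3% (GL7+) and 39.9% (CD138+) of all genes were called higher. Whether a paralog differed from its parent was not tested. Rps27l, known as a target of p53, had 33.8, 39.2 and 33.2 RPKM in naive cells, 215, 249 and 224 in GL7+ DMSO, 245, 260 and 262 in GL7+ GSK-J4, 296, 279 and 301 in CD138+ DMSO and 318, 321 and 272 in CD138+ GSK-J4 cells. No cultured library came near a naive one. Rps27l rose by 2.66 in GL7+ (6.33-fold, SE 0.0771, adjusted p = 2e-13) and by 3.01 in CD138+ DMSO cells (8.07-fold, adjusted p = 3.2e-14), while its parent Rps27 fell. In CD138+ against GL7+ cells it was higher by 0.35 with DMSO (adjusted p = 0.0013) and by 0.24 with GSK-J4 (adjusted p = 0.013).

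Rpl36al had 65.0, 89.5 and 70.5 RPKM in naive, 136, 141 and 148 in GL7+ DMSO and 202, 202 and 207 in CD138+ DMSO cells. The 3 groups did not overlap. It rose by 0.92 in GL7+ (SE 0.087, adjusted p = 1.2e-07) and by 1.44 in CD138+ cells (SE 0.087, adjusted p = 5.6e-10) against naive cells, and was 0.52 higher in CD138+ than in GL7+ cells (adjusted p = 0.00012). Its parent Rpl36a rose by 0.50 and 0.41 against naive cells and did not pass the threshold between the fractions (-0.10, adjusted p = 0.36).

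Rpl22l1 had 120.2, 81.6 and 128 RPKM in naive, 273, 297 and 265 in GL7+ DMSO, 227, 216 and 213 in GL7+ GSK-J4, 212, 211 and 228 in CD138+ DMSO and 114, 124 and 107 in CD138+ GSK-J4 cells. It was the highest in GL7+ DMSO cells, and with GSK-J4 the CD138+ libraries fell to the range of the naive ones. Its parent Rpl22, whose protein is known to hold down Rpl22l1 mRNA, had means of 147 ± 16.05, 185 ± 2.81, 172 ± 2.04, 159 ± 3.65 and 157 ± 14.0 RPKM in the same groups (SD, n = 3 each). Per kilobase, Rpl22l1 exceeded Rpl22 in every GL7+ library and every CD138+ DMSO library, and lay below it in every naive and every CD138+ GSK-J4 library. Rpl22l1 rose by 1.36 in GL7+ DMSO against naive cells (SE 0.121, adjusted p = 6.6e-08).

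Rpl7l1, a factor of large subunit assembly related to Rpl7, had 27.8, 23.3 and 25.5 RPKM in naive, 41.5, 43.1 and 41.5 in GL7+ DMSO, 48.7, 47.3 and 51.5 in GL7+ GSK-J4, 30.05, 30.4 and 29.9 in CD138+ DMSO and 27.2, 30.8 and 26.8 in CD138+ GSK-J4 cells. All GL7+ libraries were above all others. It rose by 0.70 in GL7+ DMSO against naive cells (SE 0.064, adjusted p = 8e-08), while CD138+ DMSO cells were 0.23 above naive cells (adjusted p = 0.0035). Rps4l had 2.88 to 6.70 RPKM with overlap in every comparison and passed the threshold in no comparison, and its parent Rps4x rose by 0.22 in both fractions against naive cells (adjusted p = 0.016 and 0.015).

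**Figure D4:**
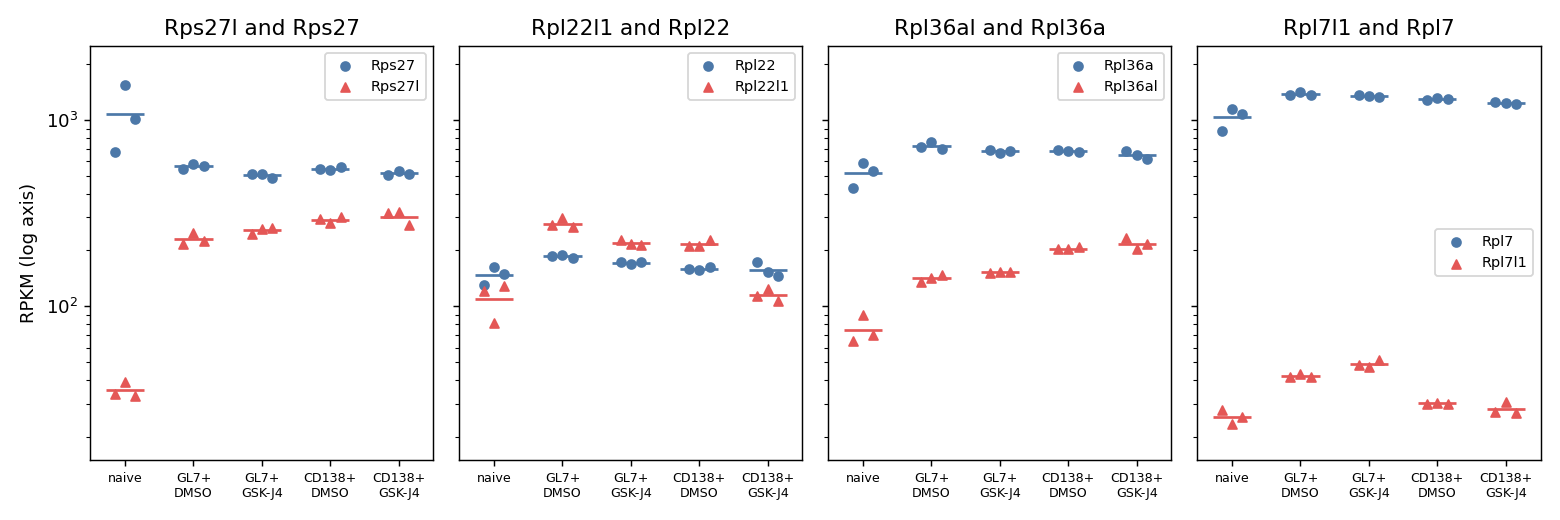
RPKM (log axis) of 4 paralogs (red triangles) and their parent genes (blue circles) in each library of the 5 groups (x axis); horizontal lines are means of 3. Rps27l rises from a mean of 35.4 in naive to 292 in CD138+ DMSO cells as Rps27 goes from 1077 to 546, and Rpl22l1 falls from 217 with DMSO to 115 with GSK-J4 in CD138+ cells.

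CD138+ and GL7+ cells from the same cultures were compared within each treatment. With DMSO 3 members were higher and 6 lower in CD138+ cells (limma, adjusted p under 0.05), where 21.8% of all genes tested were higher and 36.9% lower. Values did not overlap for 6 higher and 44 lower of 82 members, against 26.5% and 44.8% of all genes. The higher members were Rpl36al, Rps27l and Rpl10, by 0.52, 0.35 and 0.31. The lower ones were Rpl7l1 (-0.47, SE 0.064, adjusted p = 1.9e-05), Rpl22l1 (-0.36, adjusted p = 0.02), Rps12 (-0.29, adjusted p = 0.022), Rpl36 (-0.24, adjusted p = 0.046, and 0.06 with the mouse as a block), Rpl22 (-0.22, adjusted p = 0.017) and Rps13 (-0.20, adjusted p = 0.013). Rpl10 had 1513, 1564 and 1554 RPKM in GL7+ DMSO and 1904, 1904 and 1944 in CD138+ DMSO cells, with no overlap. Rps12 had 374, 401 and 391 RPKM in GL7+ and 330, 307 and 313 in CD138+ cells, also with no overlap.

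With GSK-J4, 4 members were higher and 16 lower in CD138+ than in GL7+ cells, against 24% and 39% of all genes tested. Values did not overlap for 17 higher and 42 lower of 82 members, against 27.1% and 43.1%. The mouse as a block makes replicate 4 a block of its own and takes CD138+ GSK-J4 from replicates 1 and 2 only. With it, 4 were higher and 9 lower, against 22.6% and 35.4% of all genes. The higher ones were Rpl36al (0.51, adjusted p = 0.00013), Rpl41, the smallest ribosomal protein (0.39, adjusted p = 0.0093), Rpl10 (0.26, adjusted p = 0.0061) and Rps27l (0.24). The largest falls were those of Rpl22l1 (-0.92, adjusted p = 1.1e-05), Rpl7l1 (-0.78, adjusted p = 8.2e-08), Rpl34 (-0.57, adjusted p = 0.0026), Rps13 (-0.34, adjusted p = 0.00024), Rps27a, a ubiquitin fusion (-0.32, adjusted p = 0.0023), and Rps21 (-0.31, adjusted p = 0.0099, and 0.05 with the mouse as a block). Median member changes were -0.07 with DMSO and -0.09 with GSK-J4, against -0.10 for all genes in both. Trimmed mean scaling turned the member medians to 0.04 and 0.02 and moved the splits to 3 higher and 1 lower (27.6% and 28.1% of all genes) and to 6 higher and 5 lower (29.3% and 32%), so no direction of the family between the fractions is given. In the 12 cultured libraries alone 5 members were higher and 36 lower with DMSO (24% and 41.3% of all genes) and 14 higher and 41 lower with GSK-J4 (26.4% and 42.4%).

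GSK-J4 was compared with DMSO in the CD138+ fraction. By limma 7 of 82 members were lower, a share near the 8.61% of all genes tested, and 0 were higher, against 4.61%. The falls named below are therefore those of single genes. The groups did not overlap for 45 members with lower and 9 with higher values with GSK-J4, against 22.4% and 14.4% of all genes. The median member change was -0.08, beside -0.03 for all genes. Cell type markers moved in the same libraries: 4 of 5 B cell markers fell (median -0.52, summed level 1010 to 1065 RPKM with DMSO and 811 to 850 with GSK-J4), and 0 of 5 plasmablast markers passed by limma (median 0.16). Their part in the members' changes was not tested. Rpl22l1 fell by 0.91 on the log2 scale, 1.88-fold (SE 0.121, adjusted p = 0.00028), lower in 3 of 3 libraries, while Rpl22 had a change of -0.03 (adjusted p = 0.85).

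Rps14, a small subunit protein lost in the 5q- syndrome, had 1188, 1178 and 1174 RPKM with DMSO and 917, 968 and 957 with GSK-J4 in CD138+ cells. Rpl9 had 1114, 1125 and 1125 RPKM with DMSO and 887, 912 and 943 with GSK-J4. Rps21 had 351, 335 and 347 RPKM with DMSO and 274, 275 and 269 with GSK-J4. In each of these genes all DMSO libraries were above all GSK-J4 libraries. The falls were 0.32 for Rps14 (SE 0.0802, adjusted p = 0.019), 0.30 for Rpl9 (SE 0.0761, adjusted p = 0.021) and 0.34 for Rps21 (SE 0.0926, adjusted p = 0.028). Rps27a (-0.25), Rps13 (-0.23) and Rpl3, at the peptidyl transferase centre (-0.22), had adjusted p of 0.045, 0.027 and 0.044. Rpl41 had 1634, 1565 and 1578 RPKM with DMSO and 1932, 1818 and 1919 with GSK-J4, with no overlap, and did not pass the threshold (0.25, adjusted p = 0.19), but passed it without naive replicate 2 (adjusted p = 0.031) and relative to the other members (0.32, adjusted p = 0.00033).
With the mouse as a block, replicate 4 is a block of its own, so CD138+ GSK-J4 rests on replicates 1 and 2 only. In that fit 1 of the 7 passed, Rpl22l1 (adjusted p = 0.0061), where 2.88% of all genes were called higher and 5.65% lower. Adjusted p was 0.06 for Rps14 and Rpl9 and 0.12 for Rps21. In the 12 cultured libraries alone Rps14, Rpl9 and Rps21 had adjusted p of 0.00013, 0.00031 and 7.9e-05 with the same changes, and 34 members were lower and 5 (Rpl28, Rpl23a, Rps26, Rpl35 and Rpl41) higher, against 13.4% and 7.97% of all genes.

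In GL7+ cells GSK-J4 left 1 member past the threshold, Rpl7l1, which rose by 0.22 (SE 0.064, adjusted p = 0.036, and 0.053 with the mouse as a block), where 5.81% of all genes were called higher and 7.71% lower. Yet 59 of 82 members had all GSK-J4 libraries below all DMSO libraries and 2 had them above, against 21.6% and 19.1% of all genes, and 77 of 82 changes were below 0. The median change was -0.09 beside -0.01 for all genes, and became -0.03 under quantile normalization and -0.05 under trimmed mean scaling, and the 77 standard members lay between -0.18 and 0.13. In the same libraries 5 of 5 plasmablast markers rose (median 0.40, summed level 598 to 659 RPKM with DMSO and 773 to 868 with GSK-J4) and 2 of 5 B cell markers fell (median -0.28), and their part was not tested. In the 12 cultured libraries alone 26 members were lower and 1 was higher (11.5% and 10.4% of all genes). Rpl22l1 had a change of -0.34 (adjusted p = 0.077), which passed without naive replicate 2 (adjusted p = 0.0016).

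**Figure D5:**
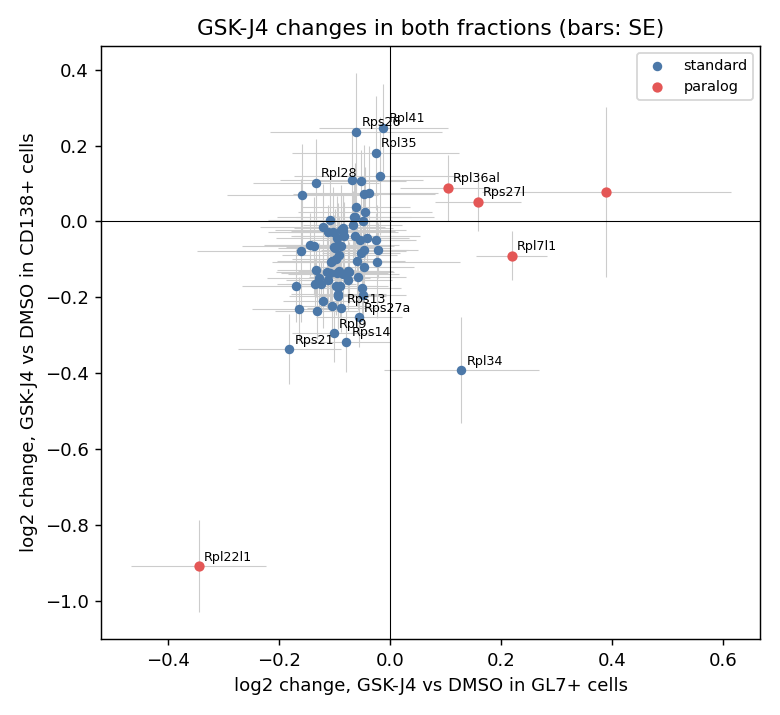
Change with GSK-J4 against DMSO in GL7+ cells (x axis) and CD138+ cells (y axis), both on the log2(RPKM + 1) scale, for the 82 tested ribosomal protein genes; bars are standard errors and red points are paralogs. Standard members spread between -0.18 and 0.13 in GL7+ cells and between -0.39 and 0.25 in CD138+ cells, and Rpl22l1 lies apart at -0.34 and -0.91.

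Whether the response to GSK-J4 differed between the fractions was tested by the difference of the 2 changes. By limma 0 members passed, where 0.322% of all genes were called higher and 0.644% lower. An unadjusted p under 0.05 was found for 3 of 82 members and 13.4% of all genes. With voom on recovered reads 0 members were higher and 2 lower, against 0.782% and 2.14% of all genes. The differences were -0.56 for Rpl22l1 (SE 0.172, adjusted p = 0.15), -0.31 for Rpl7l1 (SE 0.0904, adjusted p = 0.13) and -0.52 for Rpl34 (SE 0.197, adjusted p = 0.25), all more negative in CD138+ cells. Without naive replicate 2 they had adjusted p of 0.0054, 0.043 and 0.046, where 0.957% of all genes were called higher and 2.37% lower. In the 12 cultured libraries alone 5 members (Rpl22l1, Rps14, Rps13, Rps27a and Rpl7l1) had a more negative and 4 (among them Rps26, Rpl41 and Rpl28) a more positive response in CD138+ cells, against 2.78% and 1.07% of all genes. The largest there was Rpl22l1 (adjusted p = 0.0084).

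Other genes of the translation machinery were taken from lists fixed with the members. Against naive cells, 41.3% of all genes tested were called higher and 40.3% lower in GL7+ DMSO cells. In CD138+ DMSO cells these shares were 39.9% and 43.5%. Of 30 initiation, elongation and release factors whose mRNAs are not classed as TOP here, 29 rose and 0 fell in GL7+ DMSO against naive cells, with a median change of 1.17, and 29 rose in CD138+ cells with a median of 1.05. Eif2s2, a subunit of the factor that carries the initiator tRNA, rose by 2.01 (SE 0.059, adjusted p = 2.2e-13) in GL7+ cells, and Etf1, the release factor, by 1.72. Of 23 tested genes listed with TOP RNAs, not all of them translation genes, 18 rose and 2 fell in GL7+ cells. Their median change was 0.67, and the largest rise was that of the nucleolar chaperone Npm1 (1.97, adjusted p = 9.4e-12). That list holds Fau and Gnb2l1 too, the noncoding RNAs Gas5 and Snhg1, and Nap1l1, which is also counted among the chaperones below. In CD138+ cells 14 of the 23 rose and 3 fell. Of 76 mitochondrial ribosomal proteins 75 rose and 1 fell in GL7+ cells, with a median change of 1.07, and 72 rose and 1 fell in CD138+ cells. These medians were larger than the 0.36 and 0.29 of the cytoplasmic members, and the difference was not tested.

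Chaperones and importers escort new ribosomal proteins to the nucleus. In GL7+ DMSO against naive cells 11 of 13 rose and 1 fell, beside 41.3% and 40.3% of all genes. Ipo5 rose by 1.85 (SE 0.04, adjusted p = 9.9e-15) and Heatr3, which serves RPL5, by 1.71. Between the fractions, 11 of 13 were lower and 1 higher in CD138+ cells with DMSO, and 12 and 1 with GSK-J4, beside 36.9% and 21.8%, and 39% and 24%, of all genes. With GSK-J4 Nap1l1 was lower by 0.97. Against DMSO, 4 rose with GSK-J4 in GL7+ cells and 3 fell in CD138+ cells, beside 5.81% higher and 8.61% lower of all genes. The difference of those responses passed for Heatr3 (-0.48, SE 0.096, adjusted p = 0.032). Of 12 genes of mTORC1 signalling to TOP mRNAs, 4 rose and 3 fell in GL7+ cells and 6 rose and 2 fell in CD138+ cells against naive cells, beside the 41.3% and 40.3%, and 39.9% and 43.5%, of all genes called. Among them Eif4ebp1, a repressor of cap-dependent translation, rose by 2.90 (adjusted p = 5.1e-11) and Larp1, which binds the TOP cap, by 1.10 (adjusted p = 8.6e-10), while Tsc2, an inhibitor of mTORC1, fell by 0.46 (adjusted p = 1.6e-05) in GL7+ cells. By limma none of the 12 passed in either GSK-J4 comparison.

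Genes outside the family whose profile over the 15 libraries was nearest to the mean profile of the members were ranked by the root mean square difference on the log2 scale. The nearest of 7593 genes was Mrpl23, a mitochondrial ribosomal protein, at 0.0721, with means of 40.5 RPKM in naive, 53.8 in GL7+ DMSO and 44.7 in CD138+ GSK-J4 cells. Wdr83, Tfe3, Atpaf1, Mtmr9, Cenpb, Ctdnep1 and Nemf followed, up to 0.0971. Of 81 members 31 lay as near as the last of these, and the median distance was 0.115 for members and 0.389 for other genes. The mean profile was made from these same 81 members, so their smaller distance is partly built in and tests nothing.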

How the data were processed

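Poly(A) RNA of 15 libraries in 5 groups of 3 was measured. The authors deposited RPKM per gene for 21761 genes, per the file headers, with a gene length. The submitters' processing notes name TopHat2 and mm9, and the sources used here do not give the counting tool, annotation or strand setting. Depth was recovered from the smallest step between values: up to 20 reads, 100% of values came out as whole reads, with a tolerance of 0.1 read. RPKM are relative to all assigned reads. The 10866 genes that reached 1 RPKM in 3 or more libraries were analysed as log2(RPKM + 1) in 1 limma model of all libraries (limma 3.58.1, R 4.3.3; trended variance), with Benjamini-Hochberg adjustment over all genes and a threshold of 0.05. The model was tested on simulated data, where it missed most changes as small as those of most members with GSK-J4. In the GSK-J4 comparisons a member short of the threshold is therefore not shown to be unchanged.

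Replicate numbers are the mouse in the labels, so the mouse as a block was an alternative. Deviations from the group means correlated with a median of 0.0713 (-0.0395 to 0.191) within a mouse and -0.0315 between mice. Replicate 4 could be tied to no mouse and was a block of its own, so it added nothing to the block fit. That fit took CD138+ GSK-J4 from replicates 1 and 2 only, so its lost calls cannot be put down to pairing alone. The members and lists were chosen with earlier results of these data known. Named members were, for each comparison and direction, at most 6 called members, taken by size of change, whose groups did not overlap and whose higher group averaged 5 RPKM or more. The paralogs and parents, the highest and lowest 4, the stalk genes with Rpsa, up to 4 genes of smallest adjusted p per list and comparison, and the 8 nearest profiles were added. Other members named (Rpl3, Rpl41, Rps24, Rpl21 and those of the cultured libraries alone) were chosen after their values were seen. Start sequences are from RefSeq GRCm38.p6, another build than the alignment, and where a gene had several starts the one with the longest run was used. Other settings tried were the pseudocount, the filter, scalings, voom on recovered reads, library weights, fewer groups in the model and leaving out each library. Of the list of ribosomal proteins outside the symbols, 1 gene is not reported here. Figures were drawn with matplotlib 3.10.9.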

Additional observations from a re-analysis of the deposited data

How the results depend on the processing

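The 40 changes of single members picked by size of change and lack of overlap kept their direction under every alternative run. Of their values there, 1005 were past the threshold and 101 no longer past it. They were picked from these same libraries, so a kept direction was nearly fixed in advance. Other changes named above, such as those of Rpl3 and Fau, are not among the 40. The median change of the members between CD138+ and GL7+ cells turned from -0.07 to 0.04 with DMSO and from -0.09 to 0.02 with GSK-J4 under trimmed mean scaling. Counts of members past the threshold moved more, and the cause was not tested. The share of all genes called moved as well. For GSK-J4 in CD138+ cells it was 4.61% higher and 8.61% lower, and 2.88% and 5.65% with the replicate block. In the cultured libraries alone it was 7.97% and 13.4%. The counts that follow take members called higher and called lower together. Of the 39 for GSK-J4 in CD138+ cells in the cultured libraries alone, 34 were lower and 5 higher. These counts are given without the share of all genes, so no move is read as particular to the members. For GSK-J4 in CD138+ cells (7 members) the count was 3 with no filter, 1 with trimmed mean scaling, 18 with quantile normalization, 13 with voom, 22 with library weights, 30 with only the groups compared, 1 with the replicate block, 39 in the cultured libraries alone (chosen after seeing the data), and 1 to 28 leaving out 1 library (28 and 14 without naive replicate 1 and 2, 1 without any CD138+ DMSO library, and 1, 2 and 3 without CD138+ GSK-J4 replicate 1, 2 and 4). For GSK-J4 in GL7+ cells (1 member) it was 0 with no filter, relative to the members or with the replicate block, 4 with quantile normalization, 2 with voom, 5 with library weights, 18 with only the groups compared, 27 in the cultured libraries and 0 to 11 leaving out 1 library (11, 2 and 2 without naive replicate 1, 2 and 3, 0 without any 1 of the 6 GL7+ libraries). For the difference of responses (0 members) it was 1, 2, 3 and 9 with quantile normalization, voom, library weights and only the groups compared, 9 in the cultured libraries and 0 to 3 leaving out 1 library (1 and 3 without naive replicate 1 and 2). For CD138+ against GL7+ cells with DMSO (9 members) it was 4 with trimmed mean scaling, 28 with quantile normalization, 5 without the members and the 100 most abundant genes in the scaling, 15 with voom, 23 with library weights, 38 with only the groups compared, 41 in the cultured libraries and 5 to 30 leaving out 1 library (30 and 16 without naive replicate 1 and 2, 5 without GL7+ or CD138+ replicate 2). With GSK-J4 (20 members) it was 11, 45 and 13 under the same 3 scalings, 38 relative to the members, 38 with library weights, 49 with only the groups compared, 13 with the replicate block, 55 in the cultured libraries and 13 to 45 leaving out 1 library (45 without naive replicate 1, 13 without GL7+ replicate 1 or 3 or CD138+ replicate 2). Without the paralogs the share of reads was 6.11% in GL7+ GSK-J4 and 6.21% in CD138+ DMSO cells. The mouse as a block changed no other count by over 1.5 times. Depth limits Rpl34 and Rps4l, with at most 242 and 77 reads in a library.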
